A study of Caenorhabditis elegans with 9 samples.

Results

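In RNA from mixed-stage Caenorhabditis elegans embryos, 68 genes were at least 2 times lower in the highest of 6 transgenic libraries than in the lowest of 3 wild-type libraries. They were picked from 20389 counted genes by 2 conditions on CPM, the reads on a gene scaled to 1000000 reads on all genes. The lowest wild-type CPM had to be 10 or more, which 7901 genes met, and it had to be at least 2 times the highest CPM among the transgenic libraries. The 68 were thus 0.861% of the genes that could qualify. Because these values chose the genes, the difference between transgenic and wild-type embryos is given as a description with no test.

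The transgenic embryos came from strain MK14, genotype hsp::dpy-27::gfp (called DPY-27::GFP here), and from strain KB01, genotype hsp::dpy-27[EQ-TR]::gfp (called DPY-27(EQ)::GFP), whose DPY-27 has a changed ATPase site. The wild-type embryos were from strain N2. Each strain gave 3 libraries. A 30 min heat shock at 35 °C was given to the parents in every strain, N2 too, and their mixed embryos were taken after 2 h at room temperature. The transgene sits as a single copy on chromosome II, driven by a heat-inducible promoter (hsp-16.41) and ending in the 3′ UTR of dpy-27, so that it acts beside the endogenous dpy-27 gene. Nothing in the labels says whether replicates were separate cultures, so the spread between them may be technical.

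DPY-27 is the SMC4-like subunit of condensin DC, the complex that binds both X chromosomes of hermaphrodite worms and lowers their transcription. The compact worm genome places many genes end to end, and convergent neighbours on opposite strands often share the sequence of their 3′ ends. A read from such a shared stretch can be given to the right gene only where the library keeps the strand of the RNA and the counting uses it. The library protocol was a strand-keeping one (dUTP), while how the counting treated strand is not given in the sources used here. Counts of genes that overlap on opposite strands are therefore uncertain.

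The wild-type libraries stood apart from the transgenic ones in how many reads fell outside genes. For each read on a gene, DPY-27::GFP libraries had 0.0346 to 0.0407 reads on no gene and DPY-27(EQ)::GFP libraries had 0.0375 to 0.0826, against 1.04 to 1.09 in wild-type libraries. Reads on genes numbered 7062182 to 9582838 in DPY-27::GFP, 7573682 to 21281027 in DPY-27(EQ)::GFP and 17107945 to 23536013 in wild type. The DPY-27(EQ)::GFP library with 0.0826 was also the deepest transgenic one, replicate 3, and without it the conditions gave no further gene. Its library name begins with the same letters as those of wild type and not with those of the other transgenic libraries, and the labels do not say what these letters mark. The difference in reads on no gene covers all 3 wild-type libraries, so it cannot be told apart from genotype. Whether the wild-type libraries kept strand, or were counted with another strand option, was not tested, and either would change what their counts of overlapped genes mean. Together the 68 genes took 769 to 964 CPM of the transgenic libraries, against 6082 to 6698 CPM of the wild-type libraries. In whole embryos, fewer cells of a type and less RNA per cell cannot be told apart either.

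The mirror conditions, with transgenic libraries at least 2 times higher than wild type, were met by 0 of 7432 genes (0.0%). Between the transgenic strains, the same conditions were met by 0 genes in each direction. Taken alone, DPY-27::GFP was lower for 78 genes (0.987%) and higher for 1 gene (0.0133% of 7507), and DPY-27(EQ)::GFP was lower for 72 genes (0.911%) and higher for 15 genes (0.192% of 7818). These comparisons share the wild-type libraries. Lowest wild-type values above all transgenic values, with no ratio asked, were found for 1117 genes (14.1%).

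The ratio of the lowest wild-type to the highest transgenic CPM had a median of 6.34 over the 68 genes. It reached 10 or more for 24 genes, 30 or more for 14 and 100 or more for 7. With a highest transgenic count of 3 reads or fewer set to the CPM of 3 reads in the shallowest transgenic library, 12 genes reached 30 and 4 reached 100. Chromosome V held 14 (1.2% of its genes that could qualify), II held 13 (0.929%) and III held 13 (0.897%). Chromosome I held 11 (0.713%), IV held 9 (0.732%) and X held 8 (0.725%), beside 0.861% of all genes that could qualify. Protein-coding genes made up 66 of the 67 that matched the WBcel235 annotation, and the other was a pseudogene. A common gene name was carried by 30, and 38 had only a sequence name.

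**Figure D1:**
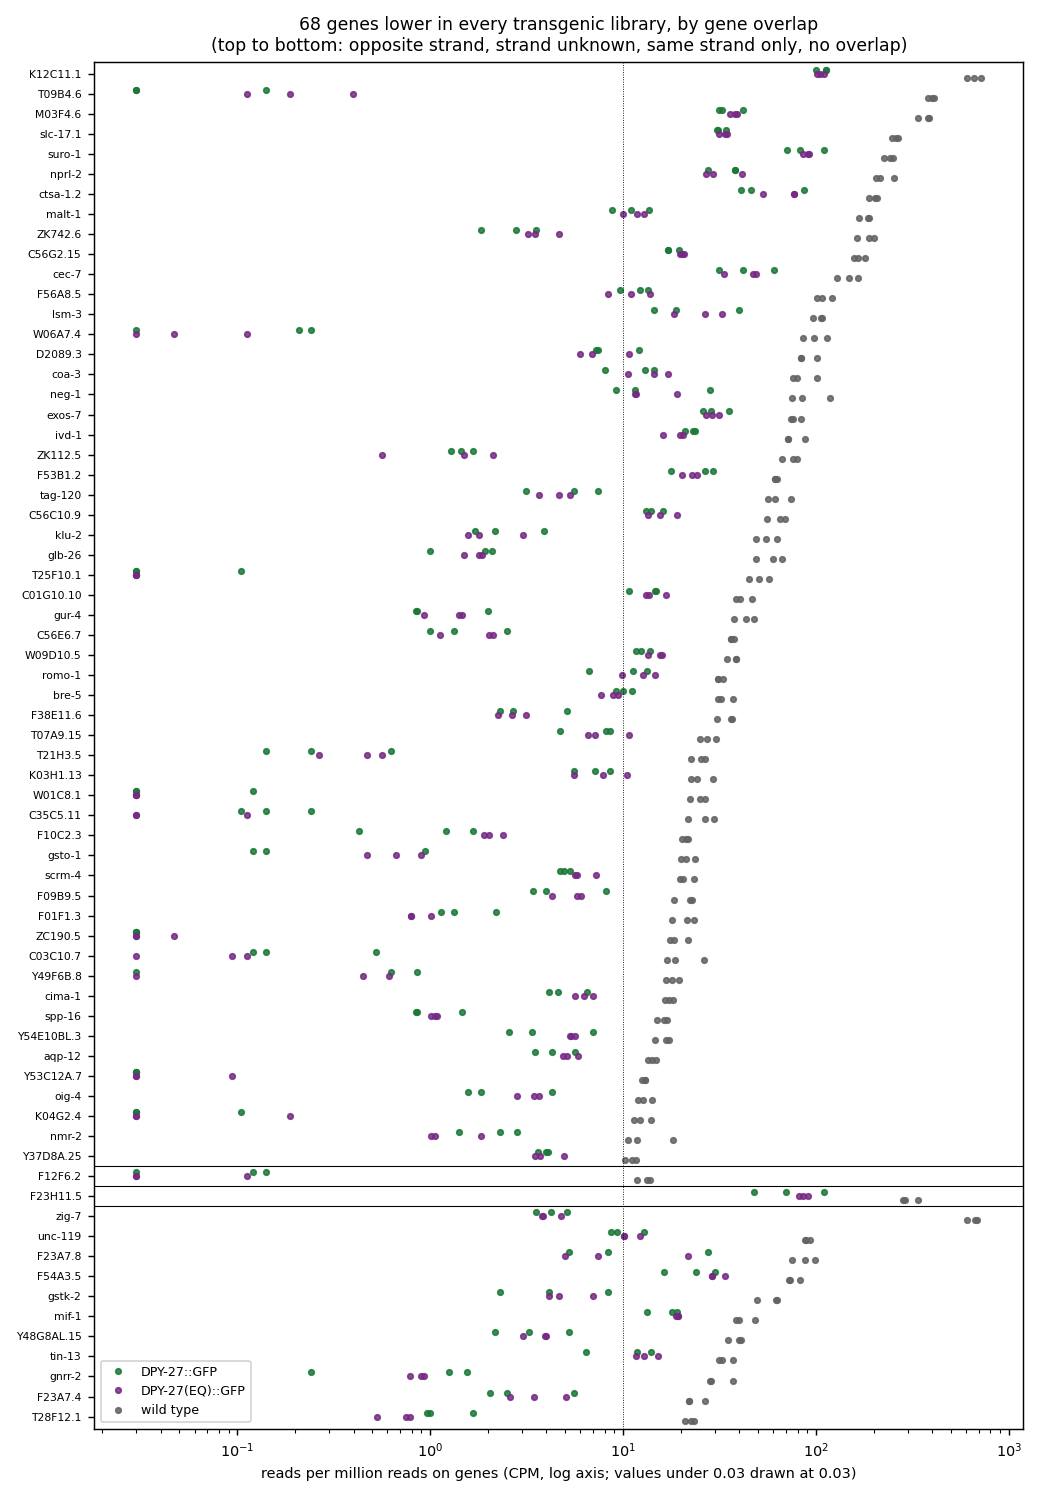
CPM (log axis) of each of the 68 genes in every library, with the 3 strains as separate points (both transgenic strains and wild type), ordered by overlap class and lowest wild-type CPM; the dotted line marks 10 CPM. The transgenic points of all genes lie left of the wild-type points, and those of 10 genes rest on 10 or fewer reads over the 6 transgenic libraries.

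Of the 68 genes, 57 (83.8%) shared bases with the span of another counted gene in the deposited WS220 positions, against 28.1% of the 7901 genes that could qualify. An opposite-strand gene was the overlapping one for 55 (80.9%, against 23.1%), and 49 of these pairs were convergent, tail to tail. Head-to-head pairs accounted for 4, and 2 genes lay inside their partner. One gene, F23H11.5, overlapped only a gene on its own strand, and F12F6.2 overlapped rib-1 but had no strand in the annotation. The other 11 overlapped no counted gene. Put as a share of each class, 3.01% of 1827 opposite-strand overlapped genes qualified, against 0.194% of 5682 genes with no overlap. In the newer WBcel235 annotation, 48 of 67 matched genes (71.6%) had exons overlapping an opposite-strand gene, against 23.7% of the matched genes that could qualify.

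Whether an overlapped gene qualified varied with how strongly its opposite-strand neighbour was read. Of genes whose neighbour had 50 CPM or less in transgenic libraries, 6 of 1218 (0.493%) were among the 68. The share was 28 of 425 (6.59%) for neighbours of 50 to 200 CPM and 21 of 184 (11.4%) for neighbours over 200 CPM. It also varied with the shared length: 2 of 870 genes sharing under 100 bases qualified, against 30 of 451 sharing 100 to 500 bases and 23 of 506 sharing 500 or more. The 55 pairs shared a median of 465 bases (14 to 2790).

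**Figure D2:**
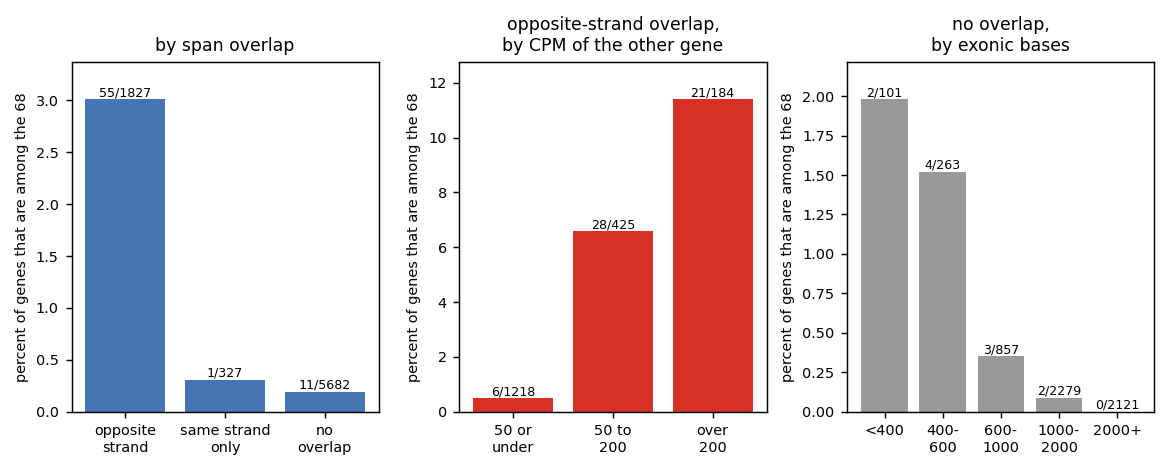
Percent of genes with a lowest wild-type CPM of 10 or more that were among the 68. Genes are split by span overlap (left), by median transgenic CPM of the opposite-strand neighbour (middle) and, for genes without overlap, by exonic bases (right). Numbers over the bars are genes among the 68 over all genes in the bar, and the 3 vertical axes differ. The share was 3.01% with opposite-strand overlap and 0.194% with none, reached 11.4% for neighbours over 200 CPM, and was 2 of 101 for genes under 400 exonic bases without overlap.

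The neighbours themselves were read about equally in transgenic and wild-type embryos. All 55 partners were different genes, and 48 lay within 1.5-fold of wild type in their mean CPM. The share of all genes within 1.5-fold was not computed, so this is not shown to be particular to the partners. Of the partners, 0 were among the 68, which says little at a share of 0.861% over the genes that could qualify. The partners' median log2 transgenic over wild type was -0.01 (-0.74 to 0.76), while the overlapped genes' transgenic mean was a median 11.4% of the wild-type mean. Reads per 100 partner reads were taken for each overlapped gene as the midpoint of its lowest and highest library. Their median over the genes was 3.34 in transgenic libraries, against 30.0 in wild type. All 55 had fewer reads per 100 partner reads in each transgenic library than in each wild-type library, which largely restates how they were chosen, since their partners differed little. The partner had more reads than the overlapped gene in wild type for 51 of the 55.

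**Figure D3:**
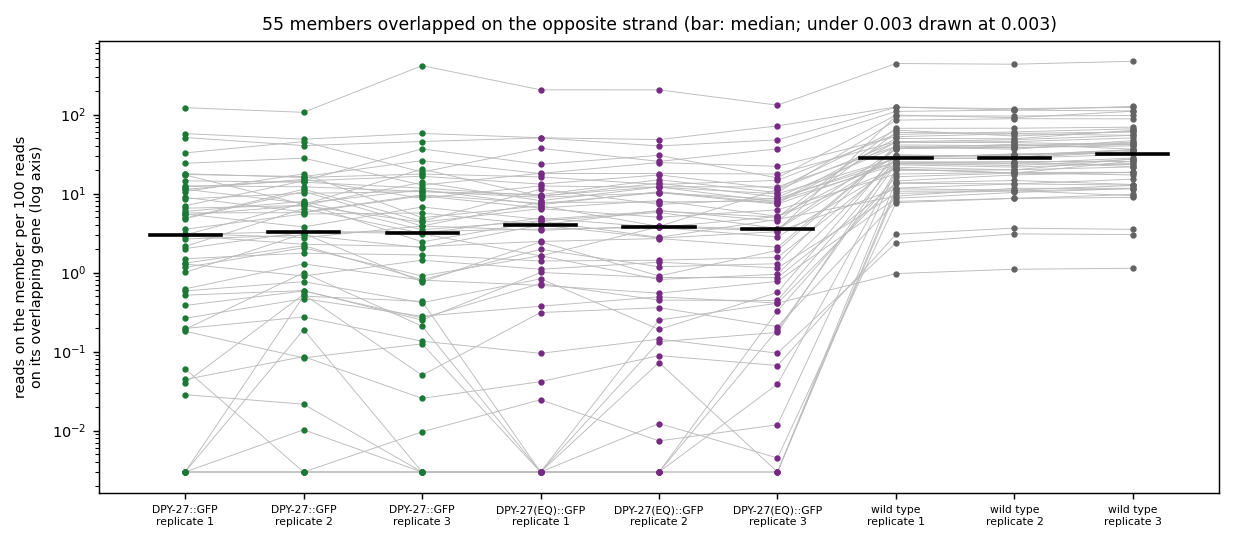
Reads on each of the 55 genes overlapped on the opposite strand per 100 reads on its partner (log axis), by library, with a line per gene and a bar at the median of each library. Library medians were 3.0 to 3.99 in the transgenic libraries and 27.9 to 32.1 in the wild-type libraries.

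Among the genes with almost no transgenic reads, the most highly read in wild type was T09B4.6, known only by its sequence name, on chromosome I from 6156841 to 6159170. It had 0, 0 and 0.142 CPM in DPY-27::GFP libraries, and 0.396, 0.112 and 0.188 CPM in DPY-27(EQ)::GFP, against 397, 378 and 406 CPM in wild type. All transgenic libraries were near 0 and all wild-type libraries near 400. The transgenic values rest on 9 reads in all, or 0.0363% of the wild-type rate (95% exact counting interval 0.0166% to 0.0690%). Its partner T09B4.5, which shares 583 bases with it tail to tail, differed by a log2 of -0.37 between transgenic and wild-type means. T09B4.6 had 19.6 to 21.8 reads per 100 reads of T09B4.5 in wild type and at most 0.0247 in transgenic libraries.

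W06A7.4, on chromosome V from 14824648 to 14829328, shares 168 bases with ret-1, which encodes the reticulon of the endoplasmic reticulum. It had 0.241, 0.209 and 0 CPM in DPY-27::GFP libraries, and 0, 0.112 and 0.0470 CPM in DPY-27(EQ)::GFP, against 85.8, 97.9 and 113 CPM in wild type. Here too every transgenic library was near 0, with 6 reads in all (0.0969% of the wild-type rate, interval 0.0355% to 0.211%). Its level was far smaller on the length-scaled TPM scale, with means of 0.132 TPM in DPY-27::GFP and 0.0609 TPM in DPY-27(EQ)::GFP, against 2.45 TPM in wild type. T25F10.1, which lies inside the calponin-like gene clik-1, had 1 read in the 6 transgenic libraries, against 44.9 to 56.8 CPM in wild type. W01C8.1, a partner of W01C8.5, likewise had 1 transgenic read, against 22.1 to 26.4 CPM in wild type. The pseudogene C35C5.11, with which related copies may share reads, had 5 transgenic reads, against 21.7 to 29.6 CPM in wild type, and K04G2.4, beside ath-1, also had 5, against 11.4 to 13.9 CPM. ZC190.5 had 1 and Y53C12A.7 had 2, against at least 17.5 CPM and at least 12.5 CPM in every wild-type library. Transgenic embryos gave almost no reads for these genes, so their ratios carry wide counting intervals. In all, 10 of the 68 had 10 or fewer reads over the 6 transgenic libraries, at 0.0318% to 0.769% of the wild-type rate, with no upper bound above 1.49% (95% exact intervals, which cover counting error only).

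Other overlapped genes kept clear reads in the transgenic embryos. The most highly read was K12C11.1, on chromosome I from 1340742 to 1344696, whose partner is smo-1, the gene for the small modifier SUMO. K12C11.1 had 100.1, 112 and 112 CPM in DPY-27::GFP libraries, and 110.3, 100.3 and 105 CPM in DPY-27(EQ)::GFP, against 658, 604 and 716 CPM in wild type. The transgenic libraries lay close together, far below all wild-type ones (log2 transgenic over wild type -2.63). Its partner smo-1 lay furthest below wild type among the 55 partners, at a log2 of -0.74.

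M03F4.6, on the X chromosome from 4964056 to 4969328, shares 333 bases with act-4, an actin gene of muscle and other tissues. It had 31.5, 32.6 and 41.8 CPM in DPY-27::GFP libraries and 37.9, 35.7 and 38.7 CPM in DPY-27(EQ)::GFP, against 338, 382 and 380 CPM in wild type. For every 100 act-4 reads that is 0.906 to 1.44 reads in transgenic libraries, against 10.0 to 11.6 in wild type. The transporter gene slc-17.1 (ZK54.1), of the family that carries organic anions and transmitters, converges on mlc-1, a muscle myosin light chain gene, and shares 618 bases with it. It had 30.5 to 34.5 CPM in the transgenic libraries and 247 to 266 CPM in wild type. Its partner lay on the other side of wild type, with mlc-1 at a log2 of 0.76 in transgenic over wild type, the highest among the 55. Per 100 mlc-1 reads, slc-17.1 had 3.79 to 6.76 reads in transgenic libraries and 67.0 to 69.3 in wild type.

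The zinc carboxypeptidase gene suro-1 shares 498 bases with pck-2, which encodes phosphoenolpyruvate carboxykinase. It had 82.0, 109.8 and 70.9 CPM in DPY-27::GFP libraries, and 92.2, 90.5 and 85.8 CPM in DPY-27(EQ)::GFP, against 240, 251 and 225 CPM in wild type. This gene lay just inside the ratio condition. For nprl-2, which encodes a subunit of the GATOR1 complex that restrains TORC1 when amino acids are scarce, the transgenic libraries had 26.8 to 41.1 CPM, against 203 to 254 CPM in wild type. It shares 758 bases with ima-3, an importin alpha gene, whose mean differed from wild type by a log2 of -0.39.

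Among the 11 genes with no overlapping span, zig-7 and unc-119 were the most highly read in wild type. Neither had a counted opposite-strand gene close by on its downstream side, and transcripts that were not counted were not examined. The gene zig-7 (F54D7.4) encodes a secreted protein with immunoglobulin domains, on chromosome I from 4790411 to 4792502. It had 4.22, 5.11 and 3.54 CPM in DPY-27::GFP libraries and 4.75, 3.82 and 3.81 CPM in DPY-27(EQ)::GFP, against 602, 680 and 662 CPM in wild type. The transgenic strains overlapped with each other and lay far below every wild-type library, with a lowest wild-type over highest transgenic ratio of 118 (log2 transgenic over wild type -7.27). The nearest counted opposite-strand gene downstream of zig-7, rpa-2, lay 18921 bases away.

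The gene unc-119 (M142.1), on chromosome III from 10902548 to 10908831, encodes a chaperone for acylated membrane proteins that neurons need to build their axons. It is also, in general, the selection marker of many single-copy insertion vectors, and pCFJ151, the vector named in the methods, is known to carry the Caenorhabditis briggsae gene for this purpose. The unc-119 allele of these strains is not given in the sources used here, and any part of it in these counts was not tested. The gene had 9.28, 12.8 and 8.64 CPM in DPY-27::GFP libraries and 10.0, 12.2 and 10.1 CPM in DPY-27(EQ)::GFP, against 88.3, 87.9 and 92.8 CPM in wild type. Both strains again held a narrow range, and their mean was 11.7% of wild type. The nearest counted downstream opposite-strand gene, zig-5, was 42294 bases away with 8.53 CPM in wild type.

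Of the rest of this class, 3 overlapped an opposite-strand gene once the newer annotation was used. The glutathione transferase gene gstk-2 has 44 exonic bases in common with elo-3 there, and had 2.29 to 8.35 CPM in transgenic libraries, against 49.5 to 62.4 CPM in wild type. The peptide receptor gene gnrr-2, whose name refers to gonadotropin-releasing hormone receptors, has 196 exonic bases in common with the mRNA export gene nxf-1. It had 0.241 to 1.56 CPM in transgenic libraries, against 28.2 to 37.2 CPM in wild type. T28F12.1 has 67 in common with sos-1, the Ras exchange factor gene, and had 0.528 to 1.67 CPM in transgenic libraries, against 20.8 to 23.2 CPM in wild type. These 3 genes were at 3.01% to 8.78% of their wild-type means. Y48G8AL.15 had 2.17 to 5.24 CPM in transgenic libraries, against 35.1 to 40.7 CPM in wild type, and the transcription factor gene grh-1 lies 892 bases downstream on the other strand.

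The remaining 5 genes of the class were short. F23A7.8 and F23A7.4 are adjacent genes on one strand of the X chromosome, with 204 and 207 exonic bases. F23A7.8 had 8.32, 5.22 and 27.3 CPM in DPY-27::GFP libraries and 5.02, 21.8 and 7.42 CPM in DPY-27(EQ)::GFP, against 74.8, 87.1 and 98.1 CPM in wild type. Its neighbour F23A7.4 had 2.05 to 5.52 CPM in transgenic libraries, against 21.9 to 26.7 CPM in wild type, and both were highest among the transgenic libraries in DPY-27::GFP replicate 3 and DPY-27(EQ)::GFP replicate 2. Smaller gaps were seen for F54A3.5 (16.3 to 33.8 CPM in transgenic libraries, 72.5 to 82.5 CPM in wild type), for tin-13, a small chaperone of mitochondrial protein import (6.39 to 15.1 CPM and 31.3 to 36.9 CPM), and for mif-1, a homolog of macrophage migration inhibitory factor (13.3 to 19.2 CPM and 38.5 to 48.1 CPM). Those 3 genes have 427 to 446 exonic bases.

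Length went with the difference over the genes that could qualify, and not only over the 68. Those without overlap had a median of 1661 exonic bases, while the 11 among the 68 had a median of 483 (204 to 1275). By length, the median log2 transgenic over wild type of genes without overlap was -0.71 under 400 bases, -0.43 from 400 to 600, -0.22 from 600 to 1000, -0.04 from 1000 to 2000 and 0.14 at 2000 or more. The shares among the 68 were 2 of 101, 4 of 263, 3 of 857, 2 of 2279 and 0 of 2121. In the same order of lengths, genes with opposite-strand overlap qualified in 5 of 23, 8 of 90, 14 of 264, 23 of 763 and 5 of 687 cases. At 4-fold or more below the wild-type mean there were 8 genes without overlap, of 5682, and all 8 were among the 68. That all 8 were among them largely restates the choice, which used the same values. The genes that could qualify were kept by their wild-type values alone, which can by itself lower transgenic over wild type. The part of length in these values was not tested.

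**Figure D4:**
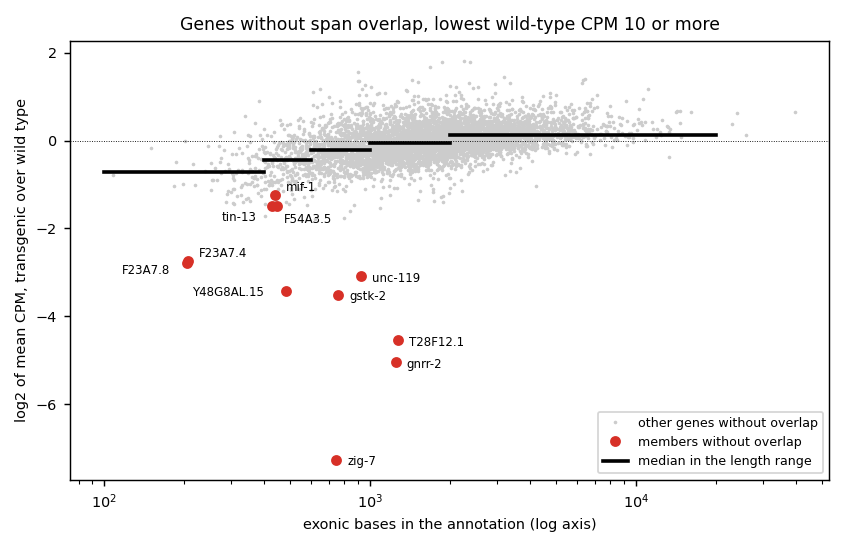
Log2 of mean CPM, transgenic over wild type, against exonic bases (log axis) for genes without span overlap and a lowest wild-type CPM of 10 or more; red points are the 11 among the 68 and black lines are medians in 5 length ranges. The medians run from -0.71 under 400 bases to 0.14 at 2000 or more, tin-13, mif-1 and F54A3.5 lie at the edge of the other short genes, and zig-7 lies lowest at -7.27.

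F23H11.5, overlapped only on its own strand, is a short gene too, with 461 exonic bases, and shares 188 with crls-1, a cardiolipin synthase gene. It had 47.4 to 110.2 CPM in DPY-27::GFP libraries and 81.9 to 90.3 CPM in DPY-27(EQ)::GFP, against 282 to 337 CPM in wild type. DPY-27::GFP libraries spread widely, yet all stayed below wild type. F12F6.2 had 3 reads over the transgenic libraries, against 11.7 to 13.8 CPM in wild type.

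By function, the 30 named genes were spread over many roles, each held by 5 or fewer. The roles were grouped after the values were seen, and no share of a role over all genes was computed. Neuronal and synaptic proteins numbered 5, with unc-119, zig-7, nmr-2 (a glutamate receptor subunit of the NMDA type), oig-4 (an immunoglobulin-domain protein that helps cluster acetylcholine receptors) and cima-1 (a transporter-like protein that keeps synapses in place), and 3 of these were overlapped on the opposite strand. Their transgenic means were 0.649% to 32.7% of wild type. Mitochondrial proteins numbered 4, at 15.2% to 36.0% of wild type: coa-3, an assembly factor of cytochrome c oxidase, tin-13, romo-1, a regulator of reactive oxygen species, and ivd-1, isovaleryl-CoA dehydrogenase of leucine breakdown. Nuclear regulators numbered 3, at 4.24% to 29.8%: klu-2, a zinc finger gene beside the poly(A) polymerase gene gld-2, cec-7, a chromodomain gene, and neg-1, which keeps gut genes off in anterior cells of the early embryo.

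Signalling genes numbered 3, with nprl-2, malt-1, a paracaspase, and mif-1, at 6.28% to 42.4% of wild type. Membrane lipid and glycolipid genes also numbered 3, with scrm-4, a scramblase, bre-5, a galactosyltransferase whose glycolipids bind crystal toxin, and spp-16, a saposin-like gene, at 6.56% to 28.2%. Pairs of genes made up the receptors (gur-4 of the gustatory receptor family and gnrr-2), the transporters (slc-17.1 and aqp-12, an aquaporin), the glutathione transferases (gstk-2 and gsto-1), RNA processing and decay (lsm-3 of the LSM ring and exos-7 of the exosome) and the peptidases (suro-1 and ctsa-1.2, related to cathepsin A). The globin gene glb-26 and tag-120 fell in none of these. Lists of heat shock genes, stress responses, dosage compensation subunits and early and late embryonic markers held 0 of the 68. Only 66 genes of these lists could qualify, so at the overall share of 0.861% a count of 0 says little, and no yolk or sperm gene of a further list could qualify.

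Embryo stage markers differed between the strains in part. The summed CPM of 15 early embryonic and maternal genes was 787 to 1892 in DPY-27::GFP libraries and 994 to 1466 in DPY-27(EQ)::GFP, against 1416 to 2561 in wild type. Of the 13 that could qualify, 4 were higher in every wild-type library than in any transgenic one, as were 14.1% of the 7901 genes. In the other direction there were 0. The 12 late embryonic genes are expressed in muscle, gut and cuticle. Their sums were 9541 to 18250 in DPY-27::GFP libraries and 11030 to 15340 in DPY-27(EQ)::GFP, against 10350 to 12410 in wild type. Of the 10 that could qualify, 6 were lower in every wild-type library than in any transgenic one, as were 11.6% of the 7901 genes. In the other direction there was 1. No marker of either list was at 0 in all libraries. The part of embryo stage in the 68 genes was not tested.

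The transgenic strains were compared with each other by edgeR's quasi-likelihood test over 12643 genes, a contrast that the choice of genes did not use directly. No gene passed an adjusted p of 0.05 (0 of 12643, 0.0%), and 0 did so with DESeq2, while 116 genes (0.918%) had an unadjusted p under 0.05 by edgeR and 147 by DESeq2. Among the 68, 0 passed and 3 had an unadjusted p under 0.05. All 68 were kept by the filter on low counts, some of them only through wild type, where they are high by choice, and a fit of the 6 transgenic libraries alone kept 51, with 0 called and 0 at an unadjusted p under 0.05. Their median log2 fold change, DPY-27(EQ)::GFP over DPY-27::GFP, was 0.03, beside -0.01 over all genes tested. All 3 DPY-27(EQ)::GFP libraries lay above all DPY-27::GFP libraries for 3 of the 68, against 2.65% of the 7901 genes, and below them for 4 of the 68, against 0.873%.

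The smallest unadjusted p was that of F01F1.3, which shares 87 bases with the aldolase gene aldo-2. It had 0.792, 1.01 and 0.799 CPM in DPY-27(EQ)::GFP, against 1.33, 2.19 and 1.13 CPM in DPY-27::GFP libraries, and the groups did not overlap (log2 fold change -0.88, standard error 0.328, edgeR unadjusted p 0.0199, adjusted p 1). F10C2.3, inside the protein kinase C gene pkc-1, had 2.38, 1.91 and 2.02 CPM in DPY-27(EQ)::GFP, against 1.21, 1.67 and 0.425 CPM in DPY-27::GFP (log2 fold change 0.86, standard error 0.348, edgeR adjusted p 1). T28F12.1 had 0.528, 0.786 and 0.752 CPM in DPY-27(EQ)::GFP, against 0.965, 1.67 and 0.991 CPM in DPY-27::GFP (log2 fold change -0.79, standard error 0.324, edgeR adjusted p 1). T09B4.6 and C35C5.11 came next, with log2 fold changes of 2.17 and -2.24 that rest on 9 and 5 reads. None of these differences held after adjustment over all genes. Of these 5 genes, F10C2.3 alone was kept in the fit of the transgenic libraries (unadjusted edgeR p 0.0783). The p-values and standard errors of the others rest only on fits that hold wild type, where these genes are high by choice. Without DPY-27::GFP replicate 2 the log2 fold change of F01F1.3 was -0.56 (unadjusted edgeR p 0.184).

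In the authors' TPM values, which were made by a different program, the difference was smaller. The transgenic mean was a median 19.9% of wild type in TPM, against 11.6% in CPM, for the same 68 genes. The lowest wild-type TPM was above the highest transgenic TPM for 64 of the 68, and for all 11 genes without overlap. These TPM values come from the same libraries that chose the genes, so such separation largely restates the choice. Its share over all genes was not computed in TPM. Both conditions of the choice were met in TPM by 30. Of the 68, 17 had a lowest wild-type TPM under 10. The exceptions to separation were cec-7, coa-3, scrm-4 and F01F1.3, all overlapped on the opposite strand. F01F1.3 averaged 2.18 TPM in DPY-27::GFP libraries and 1.05 TPM in DPY-27(EQ)::GFP, against 1.18 TPM in wild type. For K12C11.1, the TPM means were 80.4 in DPY-27::GFP libraries and 74.7 in DPY-27(EQ)::GFP, against 104 in wild type. The gene zig-7 averaged 5.60 TPM in DPY-27::GFP libraries and 5.14 TPM in DPY-27(EQ)::GFP, against 274 TPM in wild type, while unc-119 averaged 17.7 and 15.8 TPM in those strains, against 133 TPM in wild type. The ratio of the lowest wild-type to the highest transgenic value was 37.9 in TPM for zig-7, against 118 in CPM.

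Just inside the ratio condition were mif-1 at 2.00, suro-1 at 2.05 and Y37D8A.25 at 2.07, and just outside it were ncx-1 at 1.94, dpf-4 at 1.90 and nduv-3 at 1.87. Nearest inside the CPM minimum were Y37D8A.25 at 10.2, nmr-2 at 10.6 and K04G2.4 at 11.4 CPM, and nearest outside it, with ratios of 5.22, 20.9 and 29.9, were R05D3.3 at 8.79, K03B8.8 at 8.71 and M02B1.4 at 8.47 CPM. Genes on either side of the ratio limit differed little. Over the transgenic libraries of both strains together, the 68 genes had a median coefficient of variation of 28.9%, and over wild type 9.17%. For all genes that could qualify, these were 15.4% and 8.47%. The 68 were chosen to be low in the transgenic libraries, where few reads widen such a spread.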

How the data were processed

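Polyadenylated RNA of mixed-stage embryos was sequenced in 9 libraries, 3 from each transgenic strain and 3 from wild type, grouped by strain and genotype. The authors aligned reads to WS220 with Tophat and deposited whole-number read counts per gene (HTSeq 0.6.1p1) and TPM values (Cufflinks 2.2.0); the strand option is not given in the sources used here. The deposited per-library count files were identical to the columns used, 0 columns were left unused, and tables of the authors' own DESeq2 comparisons (fold changes and p-values) were not used. Rows that name no gene, 12.6% to 58.2% of a library's reads, were left out of library sizes.

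CPM was computed per library, and overlap used the deposited spans with strands from WBcel235. DPY-27(EQ)::GFP was compared with DPY-27::GFP by edgeR 4.0.16 (limma 3.58.1, R 4.3.3), with filterByExpr, TMM and Benjamini-Hochberg adjustment over all genes and one fit of all 9 libraries. On simulated data for that comparison, 200 of 200 genes changed by 2 on the log2 scale were recovered among 12643, with 9 unchanged genes called. The changed genes were drawn only from those above the median mean CPM. The simulation therefore does not show what could be found among genes low in both transgenic strains. DESeq2 1.42.0, other scalings, thresholds and left-out libraries were alternatives. The members and gene lists were chosen with earlier results of these data known. Genes were named, per overlap class, as the 6 with the largest ratio (a highest transgenic count of 3 reads or fewer set to 3 reads of the shallowest transgenic library) and the 6 with the highest wild-type level, all named genes without overlap, 3 on each side of each threshold and the 5 with the smallest p between the transgenic strains; roles of the other named genes were grouped after their values were seen. Python 3.11.15, pandas 2.3.3, SciPy 1.17.1 and matplotlib 3.10.9 were used.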

Additional observations from a re-analysis of the deposited data

How the results depend on the processing

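Omitting a library can only add genes to the 68, and with each of the 9 omitted in turn 68 to 78 qualified, with 75.6% to 84.1% overlapping another gene span. TMM scaling gave 70 genes, DESeq2 size factors gave 65, without exos-7, F53B1.2, Y37D8A.25 and mif-1. A ratio of 1.5 gave 140 genes, of which 67.9% overlapped another span, and a ratio of 3 gave 42. The deposited TPM values gave 46 genes, 30 of them among the 68, and 65.2% overlapped another span. The 95% Wilson interval of the share of 83.8% was 73.3% to 90.7%, for counting error only. Among genes with 600 or more exonic bases, a limit chosen after seeing the data, 47 genes qualified and 89.4% overlapped another span. Of 24 named genes followed through 288 values under alternatives, 12 values left the conditions. In TPM, where each gene had 1 value, 11 of the 24 left. The values with 1 of the 9 libraries omitted could not leave, so the 288 overstates how far the genes were tried. Replicate numbers did not pair the transgenic strains (correlations of same-numbered deviations -0.40, -0.63 and -0.29, while those of DPY-27::GFP and wild type, between which no test was made, were 0.23, 0.61 and 0.53), and with the replicate block 0 genes and 0 of the 68 were called, as in every alternative edgeR and DESeq2 fit. Unadjusted p-values under 0.05 numbered 95 with the block, 1808 without DPY-27::GFP replicate 2 and 428 without DPY-27::GFP replicate 3, against 116 with all libraries. The cause was not tested. Depth limits the ranking of the genes with 10 or fewer transgenic reads, since many of their counting intervals overlap. Some do not, such as those of T09B4.6 (0.0166% to 0.069% of the wild-type rate) and C03C10.7 (0.368% to 1.42%).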
